A study of Drosophila melanogaster with 4 samples.

Results

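Proteasome subunit genes were taken as the rows of the gene table whose symbol begins with Prosalpha, Prosbeta, Rpn or Rpt and a digit, with a value of at least 10 normalized counts in at least 2 of the 4 libraries. This gave 33 genes of the 9228 that passed the same filter, out of 10626 in the table. They comprised 13 genes of the core particle (6 of the alpha ring and 7 of the beta ring), 18 genes of the cap (10 of the base and 8 of the lid) and 2 paralogs of cap ATPases, Rpt3R and Rpt6R. A further row of the symbol pattern, Prosbeta5R1, a relative of the catalytic subunit Prosbeta5, lay below the filter. Of 32 subunits listed for the fly particle, 31 were present, and Prosalpha1 was not analysed here.

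The proteasome is the large protease that degrades proteins marked with ubiquitin. Its core is a barrel of stacked rings, in which the outer alpha rings gate the entrance and the inner beta rings carry the protease sites. The cap binds the barrel's end: its base holds a ring of ATPases that unfold and translocate the substrate, and its lid holds the enzyme that removes ubiquitin. In muscle, the ubiquitin-proteasome pathway is known for the turnover of sarcomere proteins and for its induction during muscle wasting, and in flies and mammals the subunit genes are under shared control by transcription factors of the Cnc/Nrf family.

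The samples were poly-A selected, stranded, paired-end mRNA-Seq libraries of IFM, the indirect flight muscle of the thorax. The muscle is fibrillar in type and was dissected from pools of flies raised at 27 °C, at 1 d of adult age. Bru1 is an RNA-binding protein of the CELF family, and flight muscle transcripts were compared between bru1 mutant and control flies. There were 2 bru1M3 libraries and 2 w1118 libraries. The flies called bru1M3 carry a CRISPR allele in which a splice-trap cassette stands before exon 18 of bru1 and truncates its transcripts, while w1118, a white-eyed laboratory strain, served as the control. It is a single allele, and the gene is mutant in the whole animal, not in muscle only. The paper reports that flight muscle of this mutant is hypercontracted in young adults, with severely degraded myofibrils and most fibers torn or detached. Genotype and tissue damage thus go together in these libraries. The part of that damage in the differences between genotypes was not tested. The labels do not say that the 2 libraries of a genotype came from separate crosses, so p-values measure only the spread between these libraries.

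The libraries held 30937694 to 34039049 reads in bru1M3 and 30384053 to 34105524 in w1118. Transcripts of the mitochondrial genome took 29.0% to 41.2% of the reads in bru1M3 and 63.7% to 72.6% in w1118, which left 19999967 to 21962285 nuclear reads in bru1M3 and 8326712 to 12395680 in w1118. The targeted gene had 10618 and 9976 normalized counts in bru1M3 IFM, against 1807 and 1386 in w1118 IFM. In the authors' exon-use scores, all 7 bru1 bins from bin 18 onwards were lower in bru1M3, and 10 of the 12 bins before it were higher, with bin 18 taken as exon 18. Of 5 IFM markers 0 passed the main test in either direction, beside 22.2% of all genes tested. Act88F and wupA had log2 fold changes of 0.51 and 0.33, against -0.35 for fln, -0.21 for TpnC4 and -0.64 for Strn-Mlck. Over all settings tried, Act88F ran from 0.30 to 1.25 and Strn-Mlck from -1.27 to -0.01. The paper reports altered splicing of Strn-Mlck and wupA in this mutant. The summed level of the 5 markers, of which Act88F was the largest part, was 1080170 and 1481300 normalized counts in bru1M3 against 1122130 and 1107430 in w1118. The bru1M3 libraries were not alike: Strn-Mlck had 57922 and 139160 normalized counts in bru1M3, against 134346 and 145275 in w1118. For fln the values were 139391 and 225752 in bru1M3, against 221962 and 230469 in w1118.

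Transcripts of every proteasome subunit measured were more abundant in bru1M3 IFM. All 31 subunit genes of the particle passed the test as higher (limma, Benjamini-Hochberg adjusted p under 0.05 over 9228 genes), 0 were lower, and in all 31 both bru1M3 libraries lay above both w1118 libraries. Among all genes tested, 22.2% were called in either direction, 12.8% higher and 9.33% lower, and 32.9% had both bru1M3 libraries above both w1118 libraries. The median log2 fold change of the 31 genes was 2.35, a 5.11-fold difference, while the median over all genes tested was -0.00 with quartiles of -0.53 and 0.55. Subunit log2 fold changes lay between 1.88 and 2.88 with standard errors of 0.16 to 0.26. Adjusted p-values ran from 0.000184 to 0.00113, and all 31 genes were still called when any 1 library was left out, with a highest adjusted p of 0.0310 without bru1M3 replicate 1.

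Summed over the 31 genes, the subunits came to 143791 and 104034 normalized counts in bru1M3 IFM, against 23550 and 23852 in w1118 IFM. As a share of all nuclear reads they took 1.05% and 0.616% in bru1M3, against 0.166% and 0.176% in w1118. The bru1M3 libraries stood apart, with replicate 1 the higher, and the w1118 libraries were close to each other. Even so, the lower bru1M3 library exceeded the higher w1118 library by at least 2.94-fold for each subunit, with a median of 4.11-fold. In bulk tissue, more cells of a type and more RNA per cell cannot be told apart.

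**Figure D1:**
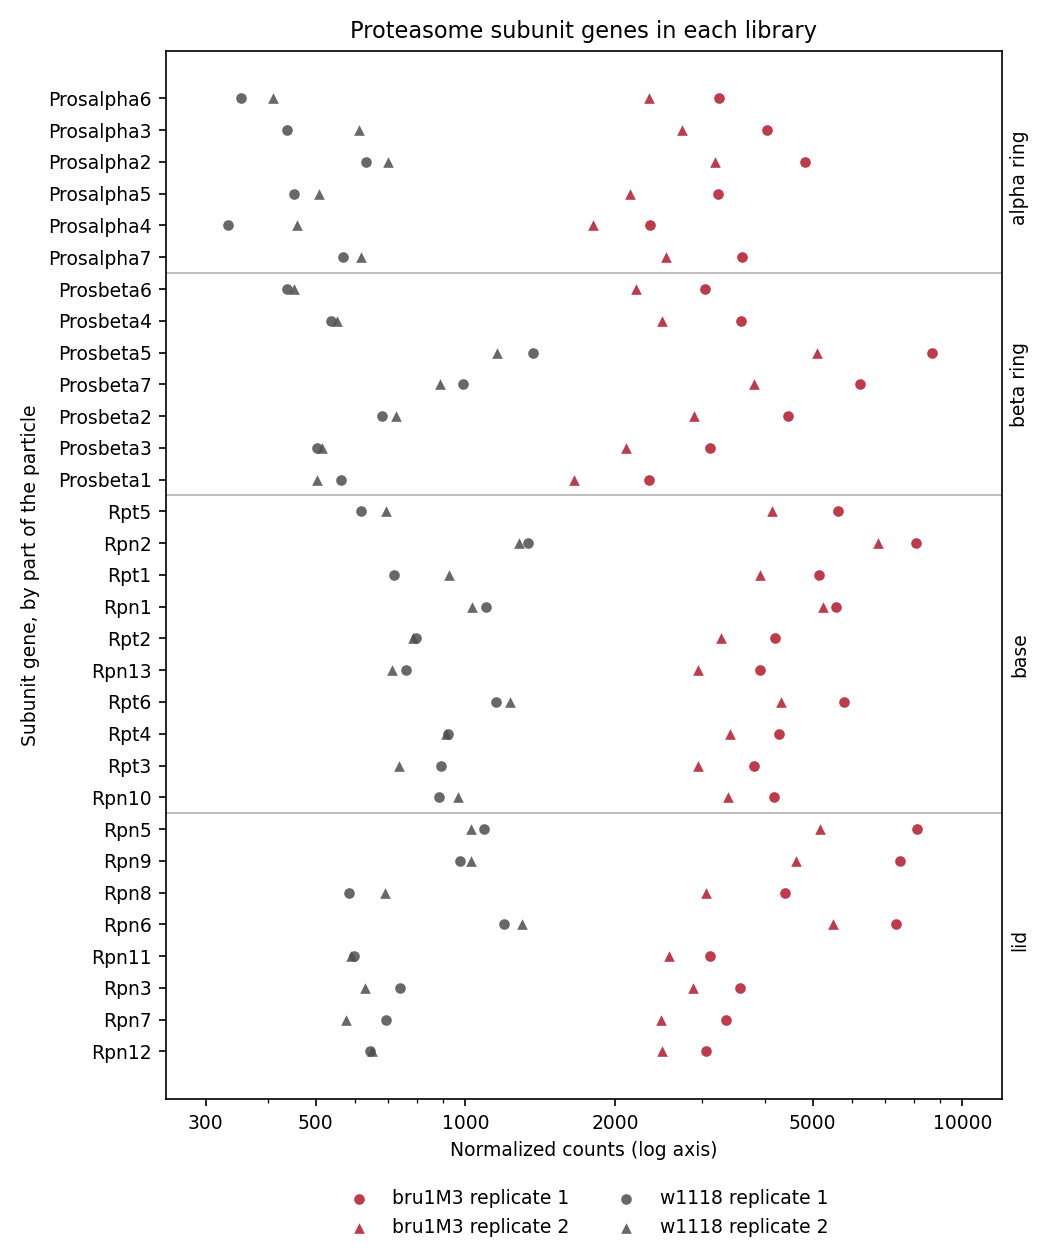
Normalized counts (log axis) of the 31 proteasome subunit genes in each of the 4 libraries, grouped by part of the particle and ordered within it by fold change. Red symbols are bru1M3 and grey symbols are w1118, with circles for replicate 1 and triangles for replicate 2. No red symbol overlaps a grey one of the same gene, and in all 31 genes the red circle lies right of the red triangle.

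The subunits were well expressed in both genotypes. By normalized counts, not corrected for length, the median subunit stood at the 95.1 and 93.3 percentile of tested genes in bru1M3, against the 81.9 and 82.6 percentile in w1118. The lowest subunit of each library rested on 3430 and 2154 recovered reads in bru1M3, against 196 and 375 in w1118, so counting error was small beside the differences.

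The alpha ring, the outer ring of the core, had the highest median log2 fold change of the 4 parts at 2.51, with 6 of 6 genes called higher and a range of 2.35 to 2.85. Prosalpha6 moved most among core genes, with 3245 and 2336 normalized counts in bru1M3 IFM, against 354 and 411 in w1118 IFM. Its log2 fold change was 2.85 (SE 0.21, limma adjusted p = 0.000245). The bru1M3 values of Prosalpha6 lay well above its w1118 values. Prosalpha7 had the smallest change of the ring, with 3610 and 2535 normalized counts in bru1M3, against 567 and 617 in w1118, a log2 fold change of 2.35 (SE 0.21, limma adjusted p = 0.000431). In both genes the bru1M3 libraries differed more from each other in normalized counts than the w1118 libraries did.

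The remaining alpha subunits lay in between. Prosalpha3 had 4052 and 2725 normalized counts in bru1M3, against 437 and 611 in w1118, a log2 fold change of 2.68. Prosalpha2 had 4827 and 3185 in bru1M3, against 630 and 700 in w1118, a log2 fold change of 2.56. Both were higher in replicate 1 than in replicate 2 of bru1M3, and lower in replicate 1 than in replicate 2 of w1118. For Prosalpha5 the values were 3223 and 2142 normalized counts in bru1M3, against 453 and 508 in w1118, a log2 fold change of 2.45. For Prosalpha4 they were 2357 and 1809 in bru1M3, against 334 and 458 in w1118, a log2 fold change of 2.40. Prosalpha4 and Prosalpha3 had the w1118 libraries farthest apart in relative terms, and in neither did the groups come near each other.

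The beta ring carries the proteolytic sites. Its 7 genes had a median log2 fold change of 2.38, and all 7 were called higher. Prosbeta5, which has the chymotrypsin-like site, had 8698 and 5106 normalized counts in bru1M3 IFM, against 1370 and 1159 in w1118 IFM. The log2 fold change of Prosbeta5 was 2.40, with the largest standard error of any subunit (0.26, limma adjusted p = 0.000960). It was the most abundant core transcript per length in both genotypes, at 6060 normalized counts per kb of exon in bru1M3 and 1110 in w1118. Prosbeta2, with the trypsin-like site, had 4466 and 2880 normalized counts in bru1M3, against 679 and 725 in w1118, a log2 fold change of 2.35 (SE 0.23, limma adjusted p = 0.000612). These catalytic subunits changed by about the same amount, within their standard errors.

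Prosbeta1, which carries the caspase-like site, changed least of all 31 genes. It had 2341 and 1656 normalized counts in bru1M3 IFM, against 563 and 504 in w1118 IFM, a log2 fold change of 1.88 (SE 0.21, limma adjusted p = 0.00113). That is 3.75-fold by the group means. It was the only subunit under a log2 fold change of 2; the other 30 lay above it, and of all tested genes 4.38% were called higher with a log2 fold change of at least 2. No test was made of Prosbeta1 against its neighbours in the ring.

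The beta subunits without a protease site covered a narrow range. Prosbeta6 had the largest change of the ring, with 3031 and 2203 normalized counts in bru1M3, against 437 and 451 in w1118, a log2 fold change of 2.54 (SE 0.20, limma adjusted p = 0.000295). Prosbeta7 had 6236 and 3810 in bru1M3, against 989 and 887 in w1118, a log2 fold change of 2.38. For Prosbeta4 and Prosbeta3 the log2 fold changes were 2.45 and 2.33. Their w1118 libraries were nearly equal, at 536 and 552 normalized counts for Prosbeta4 and at 502 and 515 for Prosbeta3.

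In the cap, the base had a median log2 fold change of 2.21 and 10 of 10 genes called higher. Rpt5, an ATPase of the unfolding ring, changed more than any other subunit. It had 5633 and 4150 normalized counts in bru1M3 IFM, against 618 and 693 in w1118 IFM, a log2 fold change of 2.88 (SE 0.20, limma adjusted p = 0.000189) or 7.46-fold by the means. The other ATPases of the ring had smaller estimates: Rpt1 had a log2 fold change of 2.46, Rpt2 2.23, Rpt6 2.07, Rpt4 2.05 and Rpt3 2.04. Per kb of exon, Rpt5 had 3006 normalized counts in bru1M3, where only Rpt6 of the 6 was higher, and 403 in w1118, the lowest of the 6. Rpt6 had 5793 and 4307 normalized counts in bru1M3, against 1150 and 1227 in w1118. Transcripts of the 6 ATPase genes spanned log2 fold changes of 2.04 to 2.88 with a median of 2.15. Their proteins, which form a single ring in equal numbers, are not measured by these libraries.

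The base also holds large scaffolds and the receptors for ubiquitin. Rpn2, a scaffold, had 8052 and 6780 normalized counts in bru1M3, against 1339 and 1280 in w1118, a log2 fold change of 2.50. Rpn1, the scaffold that docks shuttle factors, had 5565 and 5245 in bru1M3, against 1103 and 1030 in w1118, a log2 fold change of 2.34 with the smallest standard error of all subunits, 0.16. In Rpn1 the bru1M3 libraries differed by only 1.06-fold. Rpn10, a ubiquitin receptor, had 4184 and 3374 normalized counts in bru1M3, against 885 and 965 in w1118. Its log2 fold change of 2.02 (SE 0.18, limma adjusted p = 0.000410) was the smallest in the cap. The other receptor, Rpn13, had 3918 and 2935 in bru1M3, against 761 and 713 in w1118, a log2 fold change of 2.20 (SE 0.19, limma adjusted p = 0.000404).

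The lid had a median log2 fold change of 2.30, with 8 of 8 genes called higher and a range of 2.09 to 2.61. Rpn11 is the lid's deubiquitinating enzyme, which cuts ubiquitin chains from the substrate. It had 3109 and 2564 normalized counts in bru1M3 IFM, against 596 and 589 in w1118 IFM, a log2 fold change of 2.25 (SE 0.17, limma adjusted p = 0.000276). Rpn8, the structural partner of Rpn11, had 4407 and 3047 in bru1M3, against 582 and 690 in w1118, a log2 fold change of 2.53. Both transcripts of the pair were thus well separated between genotypes.

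Among the scaffold subunits of the lid, Rpn5 changed most and Rpn12 least. Rpn5 had 8102 and 5175 normalized counts in bru1M3, against 1089 and 1025 in w1118, a log2 fold change of 2.61 (SE 0.23, limma adjusted p = 0.000414). Rpn12 had 3046 and 2482 in bru1M3, against 643 and 648 in w1118, a log2 fold change of 2.09 (SE 0.17, limma adjusted p = 0.000365). The w1118 values of Rpn12 were the closest pair among the 31 genes. Rpn9 had 7489 and 4632 normalized counts in bru1M3, against 973 and 1025 in w1118, a log2 fold change of 2.56. For Rpn6 the values were 7365 and 5500 in bru1M3, against 1196 and 1301 in w1118, a log2 fold change of 2.35. The other scaffolds, Rpn3 and Rpn7, had log2 fold changes of 2.23 and 2.19.

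**Figure D2:**
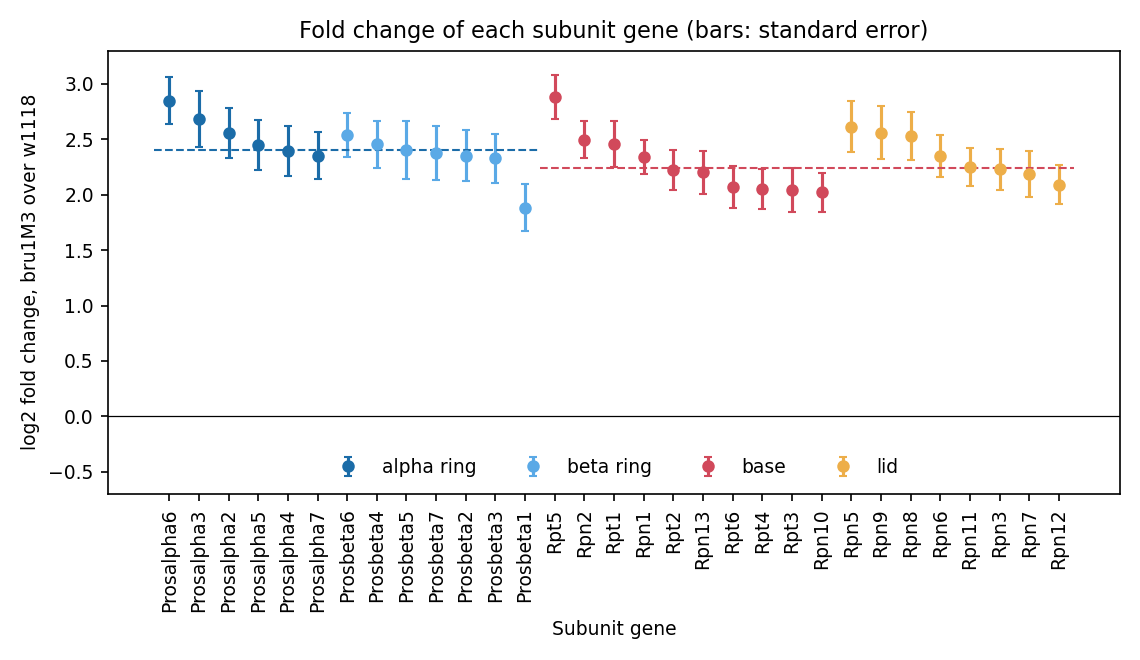
Log2 fold change of bru1M3 over w1118 for each subunit gene, coloured by part of the particle (points, limma estimate with 2 libraries per genotype; bars, standard error). Dashed lines are the medians of the core genes (2.40) and of the cap genes (2.24). All 31 points lie above 1.8, and the error bars of most neighbours overlap.

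Core and cap genes differed little in their change. The core median was 2.40 (13 genes, 1.88 to 2.85) and the cap median was 2.24 (18 genes, 2.02 to 2.88), a difference of 0.16 on the log2 scale or 1.12-fold. Of the core genes 12 of 13 lay above the cap median, and of the cap genes 6 of 18 lay above the core median. Leaving out bru1M3 replicate 1 gave a difference of 0.065, and leaving out bru1M3 replicate 2 gave 0.33, so its size depended on the bru1M3 libraries. No test was made of it, since genes of a complex are not replicates of a genotype.

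The same is seen library by library. Core minus cap, as medians of log2(normalized counts + 1), was -0.28 and -0.45 in bru1M3, against -0.65 and -0.62 in w1118. The ratio of the core sum to the cap sum was 0.580 and 0.506 in bru1M3, against 0.500 and 0.514 in w1118. By the ratio of sums, bru1M3 replicate 2 lay between the 2 w1118 libraries, and only bru1M3 replicate 1 stood above them. By the medians both bru1M3 libraries stood above.

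Levels between genes are better compared per length, since core transcripts were shorter, with a median exonic length of 973 bp against 1589 bp in the cap. Per kb of exon the median core gene had 3699 and 2597 normalized counts in bru1M3, against 581 and 628 in w1118. The median cap gene had 2900 and 2222 in bru1M3, against 495 and 486 in w1118. On this scale core transcripts were the more abundant in all 4 libraries. The spread among the genes of a part changed little: the coefficient of variation of the core was 35.3% and 28.0% in bru1M3, against 39.0% and 27.0% in w1118, and that of the cap 26.1% and 19.6% in bru1M3, against 23.2% and 26.9% in w1118.

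**Figure D3:**
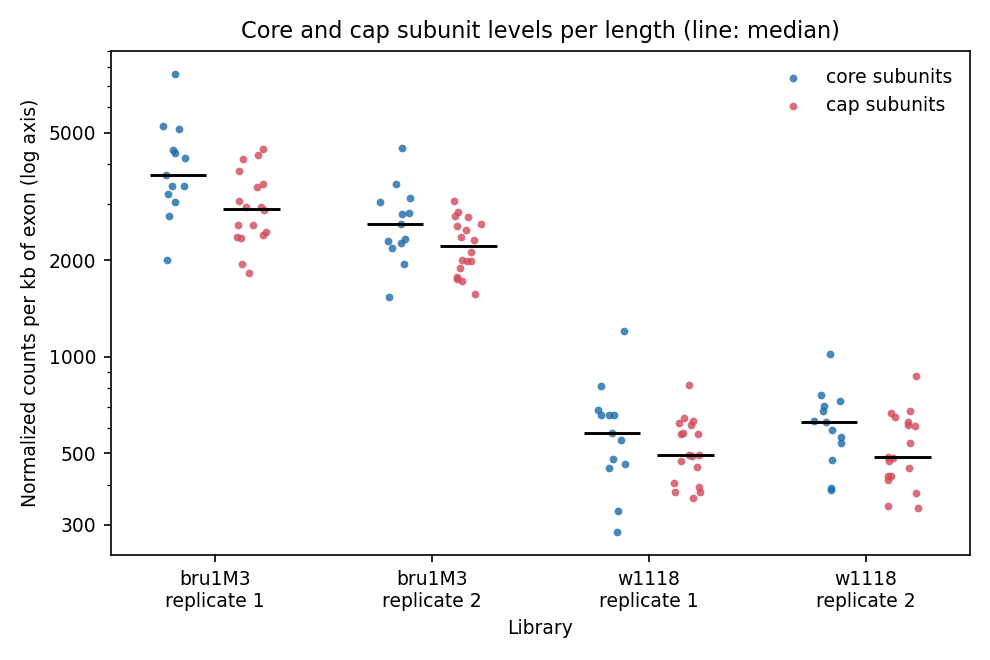
Normalized counts per kb of annotated exon (log axis) of the 13 core genes (blue) and 18 cap genes (red) in each library, with each point a gene and the line the median. The core median lies above the cap median in each library, and both lie higher in the bru1M3 libraries than in the w1118 libraries.

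The bru1M3 libraries were not alike in these genes. Replicate 1 exceeded replicate 2 in 31 of 31 subunits, by 1.06-fold (Rpn1) to 1.70-fold (Prosbeta5) with a median of 1.36-fold, while 4554 of all 9228 tested genes were higher in replicate 1. The median ratio was 1.48 for core genes and 1.30 for cap genes. In w1118, replicate 1 exceeded replicate 2 in 13 of 31 subunits, with ratios of 0.715 to 1.22 and a median of 0.971. The subunits thus moved together between replicates of the mutant, and did so less in the control, which is a description of 4 libraries.

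**Figure D4:**
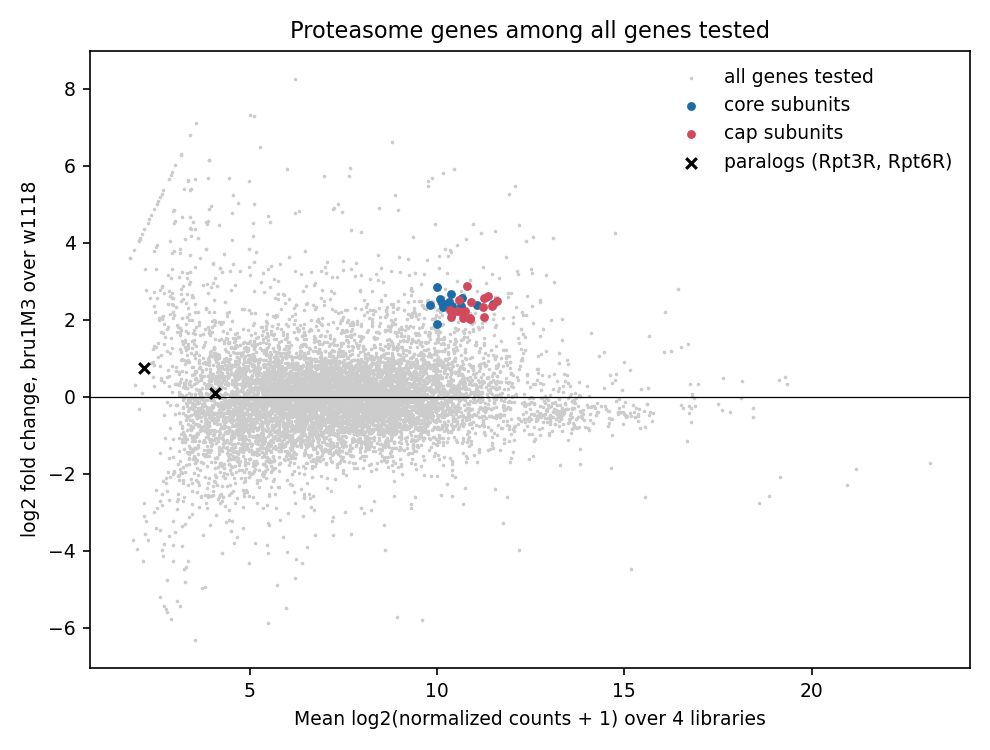
Log2 fold change of bru1M3 over w1118 against mean log2(normalized counts + 1) over the 4 libraries, for all 9228 tested genes (grey), core subunits (blue), cap subunits (red) and the paralogs Rpt3R and Rpt6R (crosses). The 31 subunits form a compact cloud between 1.88 and 2.88, well above the median of all genes, and the paralogs lie at low levels near 0 to 0.75.

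Ranked by log2 fold change among all tested genes, the subunits ran from rank 212 (Rpt5) to rank 531 (Prosbeta1), so the lowest subunit was within the top 5.75%. A description of their features over the 31 genes showed no strong relation: Spearman's rho of the log2 fold change with exonic length was -0.03, and with the mean level in w1118 it was -0.17. Within the 18 cap genes rho with exonic length was 0.55, and within the 13 core genes it was 0.05. All points share the same 4 libraries, so no p was computed.

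The paralogs were not called. Rpt3R and Rpt6R are copies of the ATPase genes Rpt3 and Rpt6 that are known in flies for expression in the testis. Rpt3R had 12.3 and 1.54 normalized counts in bru1M3 IFM, against 0 and 11.0 in w1118 IFM, a log2 fold change of 0.75 (SE 1.50, limma adjusted p = 0.756). Rpt6R had 10.2 and 26.1 in bru1M3, against 11.9 and 19.7 in w1118, a log2 fold change of 0.09 (SE 0.67, limma adjusted p = 0.936). The groups overlap in both, and the sign of both values turned when a library was left out. Prosbeta5R1, below the filter, had 2.73 and 3.08 normalized counts in bru1M3, against 0 and 2.19 in w1118. At these levels a change as large as that of Rpt3 itself was not detectable for Rpt3R, whose standard error was 1.50. Paralog and parent are similar in sequence, and how reads shared by both were counted is not given in the sources used here.

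The subunit genes do not sit together. They lie on 5 chromosome arms, with 4 on 2L, 9 on 2R, 5 on 3L, 9 on 3R and 4 on X. In the BDGP6.54 annotation, Rpt5 lies at chr3R:23752876-23754623 on the plus strand, Prosalpha6 at chr2L:10221351-10222546 on the plus strand, Prosbeta1 at chr2R:16013805-16014787 on the minus strand and Rpn10 at chr3L:21537000-21538582 on the plus strand. Flanking genes were taken by start coordinate, as the tested genes with the next start before and after that of each subunit. Other subunits were skipped, and a long gene that starts farther away can be missed. This gave 62 flanking genes, of which 8 were higher, 2 were lower and 52 were not called, with a median log2 fold change of 0.14. That count of higher genes is near the 12.8% called higher over all genes tested. Among these, 2 had a log2 fold change of at least 2 and were called higher, namely CG5245 beside Prosalpha2 (3.26) and CG1671 beside Prosalpha7 (2.32). Flanking genes that overlap a subunit numbered 12 with a median of -0.10, and all but CG17985, which overlaps Rpt1, are on the opposite strand.

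Exon use was largely even across the scored bins of the subunit transcripts. The authors' table scores the use of each exon bin relative to the other bins of its gene, 1 fitted value per genotype with no replicate, on the scale of DEXSeq, so ratios of scores are not folds of use and no test was made here. It held 102 bins of 27 subunit genes with both values. The first bins of Rpn8, Rpn10 and Rpn3, for example, were absent, so not every exon is covered. The ratio of bru1M3 to w1118 scores had a median of 1.00 and ran from 0.949 at its lower end to 1.06 at its upper end (5 and 95 percentiles), while over all 44278 bins these ends were 0.758 and 1.33. Bins past 1.25-fold in either direction made up 6 of 102 (5.88%), against 14.6% of all bins. The subunits are well expressed, and the bins were not matched for expression level.

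The 6 bins that stood out were all untranslated in the annotation. Their scores were low, at most 10.3 in either genotype, while bin 1 of Rpn13, for example, scored 18.7 in bru1M3 and 19.1 in w1118. Bin 5 of Rpn13 (chr2R:13960110-13960208 in the BDGP6.22 coordinates of the file), in the 5′ UTR of 2 of its 6 transcripts, scored 4.43 in bru1M3 and 1.29 in w1118, and bin 8, also in its 5′ UTR, scored 2.54 in bru1M3 and 1.81 in w1118. Bin 7 of Rpn9 (chr3R:23733252-23733462), in the 5′ UTR of 1 of 2 transcripts, scored 6.32 in bru1M3 and 10.3 in w1118. Bin 1 of Rpt3, in the 5′ UTR, scored 4.44 in bru1M3 and 5.62 in w1118. At the 3′ end, bin 4 of Prosalpha6 (chr2L:10222504-10222546) scored 4.64 in bru1M3 and 2.83 in w1118, and bin 1 of Prosbeta4 scored 4.80 in bru1M3 and 3.45 in w1118. Each of these bins lies in a UTR of the transcripts that hold it, and none overlaps a coding exon.

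Genes that regulate or assemble the proteasome were higher in part. Of 13 listed, 12 were tested, 9 were called higher and 0 lower, with a median log2 fold change of 1.10, beside 12.8% higher over all genes. Usp14, a deubiquitinase that docks on the base, had 5664 and 3787 normalized counts in bru1M3 IFM, against 613 and 664 in w1118 IFM, a log2 fold change of 2.86 (SE 0.22, limma adjusted p = 0.000274). Uch-L5, the deubiquitinase that Rpn13 recruits, had 1322 and 846 in bru1M3, against 121 and 148 in w1118, a log2 fold change of 2.97 (SE 0.26, limma adjusted p = 0.000434). Both cap-bound deubiquitinases were as far from w1118 as the subunits with the largest changes.

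Other genes of this list had smaller estimates. Pomp, the maturation factor of the core, had 2895 and 1839 normalized counts in bru1M3, against 759 and 715 in w1118, a log2 fold change of 1.65 (SE 0.23, limma adjusted p = 0.00327). Sem1, a small lid-associated subunit outside the symbol pattern, had 2370 and 1340 in bru1M3, against 509 and 504 in w1118, a log2 fold change of 1.81. Both lay below each of the 31 subunits in log2 fold change. PI31 and ntc, whose products act together on proteasome activity in flies, had log2 fold changes of 0.99 and 1.00 and were called higher. REG, an alternative activator of the core, was not called, with 586 and 480 normalized counts in bru1M3, against 395 and 474 in w1118 (log2 fold change 0.29, limma adjusted p = 0.349).

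The transcription factor gene cnc, whose family controls proteasome genes, had 2333 and 2778 normalized counts in bru1M3 IFM, against 1210 and 1062 in w1118 IFM, a log2 fold change of 1.17 (SE 0.18, limma adjusted p = 0.00415). Unlike the subunits, cnc was higher in replicate 2 of bru1M3. Its partner maf-S was not called, at 354 and 258 normalized counts in bru1M3, against 320 and 284 in w1118, nor was its inhibitor Keap1, at 82.6 and 118 in bru1M3, against 104 and 69.0 in w1118. Pngl and rngo, relatives of a glycanase and a protease that process the mammalian counterpart of Cnc, were called higher with log2 fold changes of 1.56 and 1.03. Transcript levels say nothing of the amount or the activity of the Cnc protein.

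Genes of ubiquitin, its E1 and its E2 enzymes were mixed. Of 11 tested, 4 were called higher and 0 lower, with a median log2 fold change of 0.43, beside 12.8% called higher and 9.33% called lower over all genes. Ubi-p5E, a polyubiquitin gene, had 6520 and 10037 normalized counts in bru1M3, against 1850 and 2491 in w1118, a log2 fold change of 1.91 (SE 0.25, limma adjusted p = 0.00237). The other polyubiquitin gene, Ubi-p63E, was not called, with 8746 and 13812 in bru1M3, against 10604 and 9419 in w1118. Repeats shared by the 2 genes make the split of reads between them uncertain. Uba1, the E1 enzyme that activates ubiquitin, had 3440 and 3369 normalized counts in bru1M3, against 1314 and 1327 in w1118, a log2 fold change of 1.37 (SE 0.15, limma adjusted p = 0.00113). The E2 genes Ubc10 and Ubc6 were called higher with log2 fold changes of 0.93 and 0.91. The ubiquitin-ribosomal fusion genes were not called: RpS27A had -0.59 (limma adjusted p = 0.0529) and RpL40 -0.43 on the log2 scale. RpS27A was called lower under 3 alternatives, namely a minimum value of 50, equal nuclear totals and DESeq2 (adjusted p = 0.0446, 0.0197 and 0.0165), and RpL40 under quantile normalization (limma adjusted p = 0.0203).

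Among delivery factors and ligases, 9 of 13 were called higher and 0 lower, with a median log2 fold change of 0.96, beside 12.8% called higher and 9.33% called lower over all genes. TER94, the p97 ATPase that extracts substrates from complexes and membranes, had 11130 and 8718 normalized counts in bru1M3 IFM, against 2000 and 1926 in w1118 IFM, a log2 fold change of 2.33 (SE 0.18, limma adjusted p = 0.000283). Its cofactors p47, Ufd1-like and Npl4 had log2 fold changes of 2.34, 1.82 and 0.96 and were called higher. The shuttle factors Ubqn and Rad23, which carry ubiquitinated proteins to Rpn1 and Rpn10, had 1.76 and 1.72 and were called higher. The muscle ubiquitin ligase gene tn had 14297 and 20033 normalized counts in bru1M3, against 3817 and 4641 in w1118, a log2 fold change of 2.01 (SE 0.22, limma adjusted p = 0.000988). The co-chaperone ligase gene STUB1 (0.96) and the cullin partner Roc1a (0.65) were called higher by a smaller margin (limma adjusted p = 0.0353 and 0.0391). Cul1, Cul3, SkpA and Nedd8, the other listed genes of the cullin ligase system, were not called, with log2 fold changes of -0.01 to 0.46.

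The COP9 signalosome, which has the architecture of the lid but removes Nedd8 from cullins, served as a related complex. Of its 9 listed genes 8 were tested, 1 was called higher and 0 lower, and the median log2 fold change was 0.41. Over all genes tested 12.8% were called higher, a share that 1 of 8 does not exceed. The gene called was CSN4, with 504 and 395 normalized counts in bru1M3, against 223 and 220 in w1118, a log2 fold change of 1.01 (SE 0.22, limma adjusted p = 0.0176). CSN8 and CSN3 had similar estimates of 1.05 and 0.89 with larger standard errors (0.42 and 0.32) and were not called. The lowest estimate was that of alien, at -0.11. The lid's 8 genes lay between 2.09 and 2.61, all above every COP9 gene tested.

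**Figure D5:**
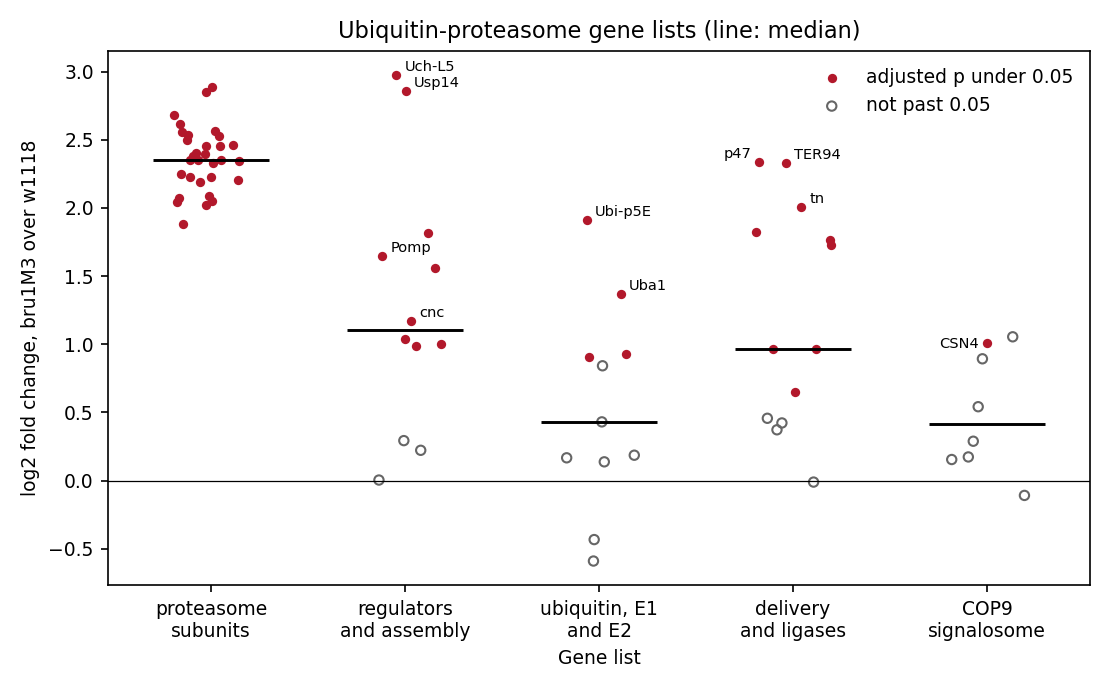
Log2 fold change of bru1M3 over w1118 for the 31 proteasome subunit genes and for 4 lists of the ubiquitin-proteasome pathway, with each point a gene and the line the list's median. Filled red points passed the limma test at an adjusted p under 0.05 and open points did not. The medians are 2.35, 1.10, 0.43, 0.96 and 0.41.

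Across the 4 lists 23 of 44 genes were called, and 13 of them, among them Usp14, Uch-L5, Pomp, cnc, TER94 and Uba1, were called under every alternative setting tried. Over all genes tested, 22.2% were called in either direction and 12.8% were called higher.

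Some markers of other cell types moved with genotype too. Over all genes tested, 12.8% were called higher and 9.33% lower. Gut markers were lower in 4 of 4 genes (summed level 2559 and 876 normalized counts in bru1M3, against 12057 and 5217 in w1118), hemocyte markers in 2 of 2 (422 and 561 in bru1M3, against 1125 and 898 in w1118) and nervous system markers in 2 of 4 (1252 and 1840 in bru1M3, against 3286 and 5171 in w1118). Of the fat body markers 2 of 4 were tested and 1, Lsp2, was higher (list sum 938 and 602 in bru1M3, against 145 and 653 in w1118). Of the 4 genes listed for tubular muscle, Act57B was higher (log2 fold change 4.12) and Act79B lower (-1.37), while Act87E and TpnC73F were not called. The paper calls Act57B a cardiac actin. Libraries of a genotype were far apart in Act57B, with 53651 and 24634 normalized counts in bru1M3, against 1023 and 4286 in w1118. Testis markers numbered 7 tested of 14 with 0 called. The sum over the 10 present was 769 and 904 in bru1M3, against 972 and 957 in w1118. Most of that sum was bol, with 675 and 824 in bru1M3, against 878 and 749 in w1118. The other tested testis genes were at low levels, with log2 fold changes of -1.25 to -0.20. Of 6 ovary markers grk alone was tested and was higher (1755 and 1713 in bru1M3, against 330 and 282 in w1118). The others, osk, nos, vas, otu and bcd, were not analysed here. The paper lists gurken (grk) among the mRNAs that Bruno1 is known to regulate in embryos. The part of these markers, and of the mitochondrial share, in the subunits' difference was not tested.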

How the data were processed

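RNA from IFM of bru1M3 and w1118 flies was sequenced by the authors, mapped with STAR 2.7.3a to BDGP6.22 and counted per gene with featureCounts (Subread 2.0.0). The gene values the authors deposited are a signal, namely counts divided by 1 DESeq2 1.32.0 size factor per library, called normalized counts here. The exon-use values the authors deposited are a DEXSeq score per bin and genotype. A deposited table of the authors' own fold changes and p-values was not used, nor were 4 library columns of the exon table.

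Genes with at least 10 normalized counts in at least 2 libraries were tested on log2(value + 1) with limma 3.58.1 (lmFit, eBayes with a trend) in R 4.3.3, bru1M3 over w1118, with Benjamini-Hochberg adjustment and a threshold of 0.05. Fold changes are on that scale. An exact permutation test of 2 against 2 libraries cannot go below p = 0.333. In each library 100% of values were whole multiples of 1 read (tolerance 0.02), and the recovered reads were tested with edgeR 4.0.16 and DESeq2 1.42.0 as alternatives. Other alternatives were the pseudocount, the filter, the scaling, the replicate block and leaving out each library. The tests were tested on simulated data. Gene positions and exon lengths came from Ensembl's BDGP6.54 annotation, inside whose exons all 106 subunit bins lay. No sequences are shown.

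Genes named were every subunit called, the extremes of each part of the particle, catalytic subunits, Rpn10, Rpn11, Rpn13, paralogs, rows below the filter, and of the pathway lists the genes called plus cnc, Pomp and Usp14. The members and all lists were chosen with earlier results of these data known. Genes not called and flanking genes were named after their values were seen. Ecm29 and CSN1a of the lists were not analysed here.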

Additional observations from a re-analysis of the deposited data

How the results depend on the processing

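All 31 subunits were called higher under each of the 13 alternatives (pseudocount, filter, scaling, edgeR, DESeq2, replicate block and each library left out), and none of the 403 subunit values lost its call or direction. With 1 library left out, its genotype has 1 sample, which is assumed to vary like the other group. Then the count over all genes was 601 to 1503, against 2046 with all libraries, and the pathway count 14 to 18, against 23. The core median was 2.16 to 2.73, the cap median 2.09 to 2.41 and their difference 0.065 to 0.33. Under quantile normalization the cap median was 1.95. The sign turned for Rpt3R without bru1M3 replicate 1 (-0.45) and without w1118 replicate 1 (-1.04), and for Rpt6R with equal nuclear totals (-0.032), without bru1M3 replicate 2 (-0.54) and without w1118 replicate 1 (-0.25), and the cause was not tested; with 1 library left out the values ran from -1.04 to 2.54 for Rpt3R and from -0.54 to 0.73 for Rpt6R. Of all genes called, 1185 were higher and 861 lower, against 1095 and 1196 under quantile normalization and 945 and 1135 with equal nuclear totals, a scaling that moved the median of all genes to -0.13 and left the subunit median at 2.22. The replicate differences of the 2 genotypes were not correlated across genes (Pearson r = 0.03). With 1 such difference per genotype, this cannot exclude a batch shared by libraries of the same replicate number. The replicate block gave 2294 genes, 31 subunits and 25 pathway genes, against 2046, 31 and 23 without it. The paralogs rest on few reads, and w1118 replicate 1 has the fewest nuclear reads.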

Other observations

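PSMG1 encodes a chaperone that in mammals helps to build the alpha ring, and it was singled out after its values were seen. It had 1709 and 1057 normalized counts in bru1M3 IFM, against 123 and 159 in w1118 IFM, a log2 fold change of 3.26 (SE 0.28, limma adjusted p = 0.000374). Both bru1M3 libraries lay above both w1118 libraries, and the change was larger than that of any of the 31 subunits, a difference that was not tested. Like the subunits, it was higher in bru1M3 replicate 1 than in replicate 2.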
